A study of Mus musculus with 14 samples.

Results

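The chemokine and chemokine receptor genes of the mouse were compared with a list of sites of H3K27me3, the trimethylation of lysine 27 of histone H3. The genes were taken by their symbols, as the autosomal protein-coding genes called Ccl, Cxcl, Ccr or Cxcr followed by a number and at most 1 letter. This gave 50 genes, 35 for ligands and 15 for receptors, of 20807 autosomal protein-coding genes. A further gene, Cxcr3, fits the pattern but lies on the X chromosome and was not counted. The choice used symbols and no measured value.

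The sites come from ChIP-seq of immortalised mouse embryo fibroblasts (iMEF) of the line Ash2l fl/fl Cre-ER. All groups, controls included, had lost exon 4 of the endogenous Ash2l gene after activation of Cre-ER and lived on FKBP-HA2-ASH2L, human ASH2L with an FKBP12 F36V tag, delivered by a lentivirus. dTAG-13 is a PROTAC, a compound that links the FKBP tag to the ubiquitin ligase subunit cereblon so that the fusion is degraded, and ASH2L is a subunit of the complexes that methylate lysine 4 of histone H3. The labels give 12 H3K27me3 libraries in 6 groups of 2 replicates, a control and cells exposed to dTAG-13 for 30 min, 2 h, 4 h, 8 h and 16 h, with 2 libraries of input. The cells were of a single selected clone, NG3, so the groups share 1 clonal background. The file holds 153983 sites, each as a chromosome, a start and an end, brought together over all samples. It carries no value for a library, so nothing here compares treated with control cells, no replicate error can be given, and the depth behind a site is unknown.

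Chemokines are small secreted proteins that attract cells, and they act through receptors of the G protein-coupled family on the cells that respond. The CC and CXC ligands differ in the spacing of their first cysteines, and many of their genes arose by duplication and stand side by side. Inflammatory ligands such as Ccl2 and Cxcl1 are induced by NF-kappaB in fibroblasts and other tissue cells, homeostatic ligands such as Cxcl12 guide cells in development and in lymphoid tissue, and most of the receptors are used by leukocytes. H3K27me3 is placed by the Polycomb complex PRC2 and marks genes kept silent in a cell type, frequently at promoters rich in CpG dinucleotides.

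Among these genes the mark was found at a larger share of the receptors than of the ligands. A site at a start means here that a site overlapped the 1 kb either side of any annotated transcript start of the gene (GENCODE, GRCm38), and the span of a gene is these windows together with its body. Of all 50 genes, 17 (34%, with a 95% Wilson interval of 22.4 to 47.8) had a site at a start, against 31.3% of all autosomal protein-coding genes. A site at a start or in the body was found for 24 genes (48%), against 47.8% of all genes. The list as a whole thus stood close to the background on both counts, and the ligands and receptors lay on either side of it. Intervals of this kind cover the counting of genes only.

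The receptors had a site at a start in 9 of 15 genes (60%, 35.7 to 80.2) and the ligands in 8 of 35 (22.9%, 12.1 to 39.0). The difference was 37.1 percentage points, with a 95% Newcombe interval of 8.0 to 60.0. With the body included, the receptors reached 12 of 15 (80%, 54.8 to 93.0) and the ligands 12 of 35 (34.3%, 20.8 to 50.8), a difference of 45.7 points (15.6 to 64.4). No test was run on these shares, because genes of a family stand side by side and are not independent. The receptors were also the longer genes, with a median span of 10718 bp against 4122 bp for the ligands and 18630 bp for all genes, and the part of length in the result for the body was not tested. The windows at the starts had a median length of 2025 bp for receptors, 2003 bp for ligands and 4002 bp for all genes, and of 3118 bp for the CC receptors alone, so that a gene of the background had more start sequence in which to meet a site.

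The start that an annotation gives to a gene moved the difference. With the single start and the gene limits of RefSeq, 7 of 15 receptors (46.7%) and 7 of 35 ligands (20%) had a site at the start, a difference of 26.7 points (-0.357 to 51.9), an interval that reached below 0. Ccr2 kept a site under RefSeq, while Ccr9 was among the receptors without one, and Ccl4 was the ligand that lost its own. For the start or the body the counts were again 12 of 15 and 12 of 35. A minimum width of 1 kb moved it further, to 16.2 points (-7.71 to 42.7). Sites of at least 1 kb lay at a start of 11 genes (22%), against 20.3% of all genes, and these were 6 ligands (17.1%) and 5 receptors (33.3%). A site of this width lay at a start or in the body of 12 genes (24%), against 24.3% of all genes, and the addition was a receptor, Ccr4.

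**Figure D1:**
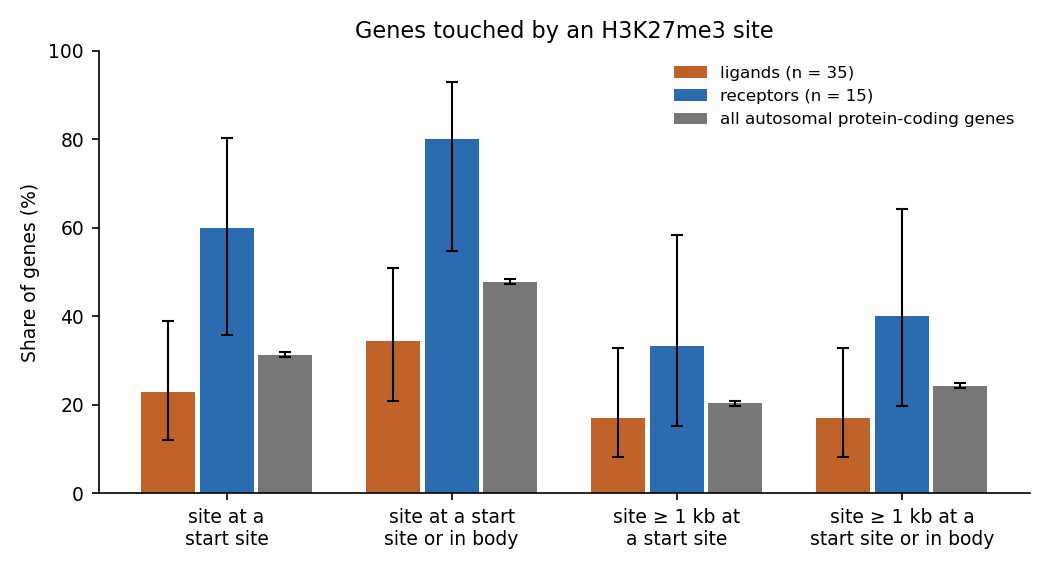
Share of genes (in %, y axis from 0) touched by an H3K27me3 site by each of 4 definitions (x axis), for ligands (orange), receptors (blue) and all autosomal protein-coding genes (grey); error bars are 95% Wilson intervals. Receptors stand above all genes for a site of any width at a start site or in the body (80% against 47.8%), while ligands stand below (34.3%), and the intervals of ligands and receptors overlap for all definitions but this one.

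Sites covered at least 50% of the span in 5 of the 50 genes (10%), against 9.49% of all genes. They were the receptors Ccr6, Cxcr4 and Ccr8 and the ligands Cxcl14 and Ccl24. The median covered share was 0 over all 50 genes and over the ligands, and 7.27% over the receptors. Over all genes of the genome it was also 0. No site touched 23 ligands and 3 receptors, the latter being Ccr1, Cxcr1 and Cxcr6.

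The promoters of 5 of the genes are shown, because they pair each kind of promoter with and without the mark. They are the 250 bases before a RefSeq transcript start (GRCm38.p6), 5′ to 3′ on the strand of the gene, with each CpG in capitals. Cxcl12 (chr6:117168285-117168534, plus strand) and its receptor Cxcr4 (chr1:128592300-128592549, minus strand) are both CpG-rich. Ccl20 (chr1:83116516-83116765, plus strand) and its receptor Ccr6 (chr17:8235793-8236042, plus strand) are both poor in CpG. Cxcl1 (chr5:90890995-90891244, plus strand) lies in a long stretch with no site.
Cxcl12: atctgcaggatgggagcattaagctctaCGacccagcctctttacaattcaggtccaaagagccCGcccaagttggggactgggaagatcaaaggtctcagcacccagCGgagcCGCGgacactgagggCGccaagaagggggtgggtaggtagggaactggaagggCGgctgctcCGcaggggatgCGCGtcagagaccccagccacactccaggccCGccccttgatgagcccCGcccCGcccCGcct
Cxcr4: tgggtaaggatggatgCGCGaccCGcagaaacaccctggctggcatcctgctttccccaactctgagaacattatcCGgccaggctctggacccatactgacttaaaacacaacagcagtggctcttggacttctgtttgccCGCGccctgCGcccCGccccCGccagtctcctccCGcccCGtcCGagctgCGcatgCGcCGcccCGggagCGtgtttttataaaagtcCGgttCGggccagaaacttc
Ccl20: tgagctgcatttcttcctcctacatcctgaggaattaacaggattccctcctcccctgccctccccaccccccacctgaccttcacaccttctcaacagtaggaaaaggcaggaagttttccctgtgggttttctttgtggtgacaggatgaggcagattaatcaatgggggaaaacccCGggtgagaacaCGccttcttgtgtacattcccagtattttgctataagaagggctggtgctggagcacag
Ccr6: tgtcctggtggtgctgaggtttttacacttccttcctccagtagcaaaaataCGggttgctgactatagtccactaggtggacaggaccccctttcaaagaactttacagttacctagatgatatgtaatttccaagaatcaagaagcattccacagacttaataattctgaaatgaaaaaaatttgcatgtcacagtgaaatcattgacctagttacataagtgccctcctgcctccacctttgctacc
Cxcl1: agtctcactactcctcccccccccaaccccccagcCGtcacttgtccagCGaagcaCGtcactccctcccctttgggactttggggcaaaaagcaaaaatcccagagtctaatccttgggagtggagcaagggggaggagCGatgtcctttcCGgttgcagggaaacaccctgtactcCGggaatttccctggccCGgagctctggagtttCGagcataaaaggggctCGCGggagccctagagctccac

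These stretches held 14 CpGs in Cxcl12, 19 in Cxcr4, 2 in Ccl20, 1 in Ccr6 and 10 in Cxcl1. At least 14 CpGs were found in 29.4% of the 32851 RefSeq promoters cut to the same 250 bases, at least 19 in 19.7%, at least 2 in 81.2% and at least 1 in 92.1%. The sequences of Cxcr4 and Ccr6 lay whole under a site, and those of Cxcl12, Ccl20 and Cxcl1 under none. In both pairs the receptor carried the mark at its promoter and the ligand did not. The pairs were picked with their sites known, so this is no result on receptors, ligands or CpG content. Pairs that go the other way are given below.

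Ccr6, the receptor of Ccl20 on T helper cells, B cells and dendritic cells, was the gene with the highest covered share (ENSMUSG00000040899, chr17:8236043-8257141, plus strand). A single site of 20620 bp (chr17:8227737-8248356) began upstream of the start and ran into the introns, and 2 more of 4898 bp and 3963 bp followed over the 3′ part. Together they covered 95.9% of its span of 22099 bp. This was the widest of the 75 sites that touched any of these genes.

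Cxcr4, the receptor of Cxcl12, which is needed for the migration of stem and progenitor cells, was covered over 89.0% of its span (ENSMUSG00000045382, chr1:128588199-128592293, minus strand). Its site was 11045 bp wide (chr1:128588779-128599823), wider than the gene itself, and reached upstream past the promoter. A smaller site of 938 bp lay at the 3′ end. Cxcl12 itself, a ligand that stromal fibroblasts make (ENSMUSG00000061353, chr6:117168535-117181367, plus strand), had no site at any of its 3 annotated starts. A single site of 338 bp lay in an intron 2920 bp downstream of the start, and 2.44% of the span was covered. The nearest site to its start was upstream, at 2630 bp, and only 335 bp wide.

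Ccr8, a receptor of T cells (ENSMUSG00000042262, chr9:120092114-120094906, plus strand), had a site of 2591 bp that began 822 bp downstream of the start and one of 413 bp upstream of it. They covered 53.2% of the span, and the start itself lay between them. Ccr7, the receptor that leads lymphocytes and dendritic cells to lymph nodes (ENSMUSG00000037944, chr11:99144196-99155077, minus strand), carried a site of 3855 bp over its start, and with 2 small sites in exons at the 3′ end 37.6% was covered. Ccr4, a receptor of T helper cells (ENSMUSG00000047898, chr9:114490316-114504916, minus strand), had no site at a start. Its only site, 1200 bp wide and centred on an exon, lay 12.08 kb downstream and covered 7.69% of the span.

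Ccr9, a receptor of gut-homing T cells (ENSMUSG00000029530, chr9:123678439-123784330, plus strand), was a receptor whose values turned on the annotation. In GENCODE a long transcript starts 88772 bp upstream of the RefSeq start, beside Slc6a20a, and there lay sites of 1794 bp and 4624 bp that overlap Slc6a20a as well. With them Ccr9 had 7 sites and 7.27% covered. At the RefSeq start there was none, the nearest being a 378 bp site 12.22 kb downstream in an exon, and 2.19% of the RefSeq span was covered. The CpG-rich promoter of Ccr9 is likewise that of the GENCODE start only.

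The other receptors had small sites. Cxcr2, the neutrophil receptor of Cxcl1 and Cxcl2, had a site of 892 bp over its start and 15.3% covered. Ccr2, the monocyte receptor of Ccl2, had a 200 bp site 157 bp from its start and one of 803 bp at a second start. Ccr10, a receptor of skin-homing T cells, had a 474 bp site 893 bp upstream that also overlapped Cntnap1. Cxcr5, a B cell receptor, had 5 sites of 200 to 401 bp in introns by GENCODE and 1 within its RefSeq limits, with none at a start by either. Ccr3, the eosinophil receptor of the eotaxins, had 1 site of 208 bp in an exon. In these genes the covered share ran from 1.94% to 15.3%.

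Among the ligands Cxcl14, a homeostatic chemokine of epithelia and stroma, had by far the highest share (ENSMUSG00000021508, chr13:56288643-56296551, minus strand). A site of 6810 bp lay over its start, and sites of 2617 bp and 1459 bp followed towards the 3′ end, so that 90.1% of its span was covered. Cxcl16, a chemokine bound to the membrane (ENSMUSG00000018920, chr11:70453983-70459984, minus strand), had a site of 7309 bp over its start that also overlapped the neighbouring gene Zmynd15. This site reached only the 5′ part of Cxcl16, and 31.7% of the span was covered.

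Ccl24 and Ccl11, eotaxin genes whose products attract eosinophils through Ccr3, and Ccl26 each had a site of at least 1 kb at a start. Of all genes, 20.3% had such a site, and these genes were grouped with their values known. Ccl24 (ENSMUSG00000004814, chr5:135569937-135573049, minus strand) lay under a site of 2595 bp with 63.1% covered. Its neighbour Ccl26 (ENSMUSG00000070464, chr5:135560448-135563569, minus strand) stood between sites of 4502 bp at its 3′ end and 3671 bp just upstream of the start, 102 bp away, and with a further one of 319 bp inside the gene 44.9% was covered. Ccl11 (ENSMUSG00000020676, chr11:82057823-82062955, plus strand), on another chromosome, had a 1071 bp site from 41 bp after the start and 20.6% covered. Ccl1, a ligand of Ccr8 made by T cells (ENSMUSG00000020702, chr11:82176657-82305690, minus strand), had a site of 2346 bp (chr11:82178226-82180571) over its RefSeq start, and 56.6% of the RefSeq span was covered. In GENCODE a transcript of Ccl1 begins 125878 bp further upstream, and the gene then met 20 sites, the widest of 12350 bp, with 42.9% covered.

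Of the other ligands with a site at a start, Cxcl13, the ligand of Cxcr5 in B cell follicles, had 1 of 280 bp, and Ccl4 had 3 of 200 to 655 bp at its GENCODE start. The RefSeq start of Ccl4 is 13960 bp from the latter and had none. In the body alone, Ccl28, a ligand of mucosal epithelia, had 6 sites of 200 to 952 bp, Ccl22, a ligand of Ccr4, had 2 of 200 and 295 bp, and Ccl12, a ligand of Ccr2, had 1 of 340 bp.

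**Figure D2:**
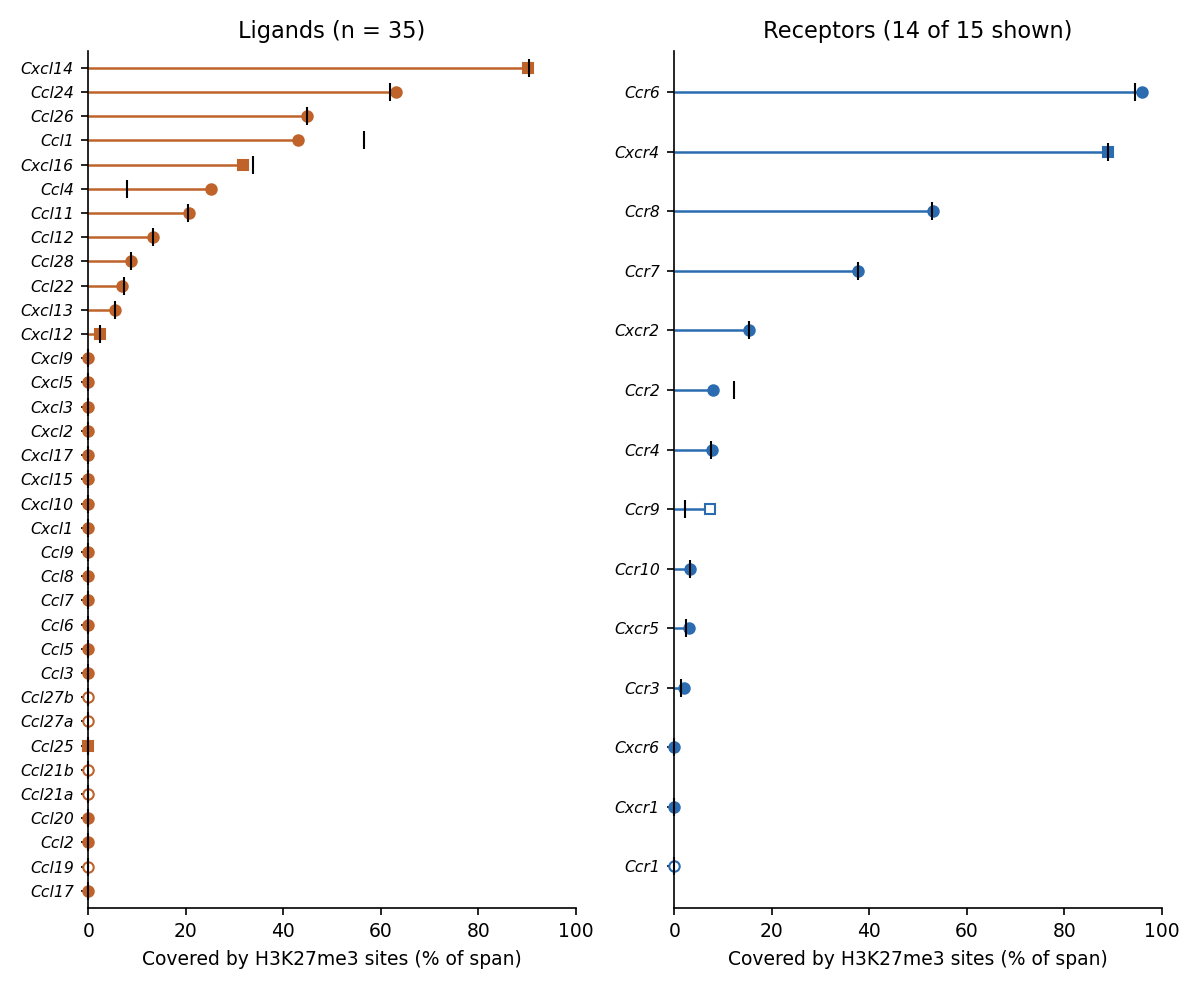
Share of each gene's span (start windows and body) covered by H3K27me3 sites, in % (x axis), for 35 ligands (left) and 14 of the 15 receptors (right); squares mark CpG-rich promoters, open symbols genes with over 10% of repeated sequence, and black ticks the share within RefSeq gene limits. Ccr6 (95.9%), Cxcl14 (90.1%) and Cxcr4 (89.0%) stand highest, 23 ligands and 3 receptors are at 0, and the RefSeq tick lies well away from the symbol for Ccl1 and Ccl4.

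By role, the intervals of the shares of the ligands overlapped. A site at a start was found for 5 of 22 inflammatory ligands (22.7%), 2 of 10 homeostatic ligands (20%) and 1 of 3 others (33.3%), against 31.3% of all genes. By family it was 5 of 23 CC ligands (21.7%) and 3 of 12 CXC ligands (25%), with 7 of 10 CC receptors (70%, 39.7 to 89.2) and 2 of 5 CXC receptors (40%, 11.8 to 76.9). The homeostatic and CC counts take Ccl19, Ccl21a, Ccl21b, Ccl27a and Ccl27b as unmarked. Their spans are repeated over 41% to 100%, so a lack of a site there cannot be read, nor can the nearness of these shares. At a start or in the body, 7 of the 22 inflammatory ligands were touched. Ccl2 and Ccl7, attractants of monocytes, Ccl5, an attractant of T cells, and Cxcl10, a target of interferon, were among those that were not. The nearest sites to the starts of ligands outside the large clusters that had none were 68.9 kb away for Ccl20, 32.7 kb for Ccl17, 10.0 kb for Cxcl9, 63.2 kb for Ccl25, 3.56 kb for Cxcl10 and 2.30 kb for Cxcl17, a mucosal ligand.

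The 25 ligands that have a well established receptor among these genes were set beside it. Receptor and ligand make 25 pairs with 13 receptors, and pairs that share a receptor repeat its value. A site at a start, which 31.3% of all genes had, was found for the receptor only in 17 pairs, for the ligand only in 4, for both in 2 and for neither in 2. The 17 include Ccl19 and Ccl21a with Ccr7 and Ccl27a with Ccr10. These ligands are repeated over 100%, 100% and 41% of their span, so their lack of a site cannot be read. The counts use GENCODE starts and change by RefSeq, as for Ccl25 with Ccr9, where Ccr9 had no site at its start. The 4 pairs with the mark on the ligand side were Ccl11 and Ccl24 with Ccr3, Cxcl13 with Cxcr5, and Cxcl16 with Cxcr6. Ccl26, which also had sites at its start, entered no pair. Ccl1 with Ccr8 was a pair in which both partners had a site at a start. In terms of covered share, the receptor stood higher in 18 pairs, those with the repeated ligands among them, and the ligand in 7. Cxcr2 alone enters 4 of the 17 pairs, with Cxcl1, Cxcl2, Cxcl3 and Cxcl5.

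Most of these promoters were poor in CpG. In the 500 bp either side of the gene start, the median ratio of observed to expected CpG was 0.196 over the 50 genes and 0.568 over all genes. A promoter was called CpG-rich from a GC content of 50% and a ratio of 0.6. This held for 6 genes, Cxcl12, Cxcl14, Cxcl16, Ccl25, Cxcr4 and Ccr9, of which 4 had a site at a start and all 4 sites were at least 1 kb wide. Of all CpG-rich genes, 24.8% had a site at a start and 16.7% one of at least 1 kb. The 2 CpG-rich genes without one were Cxcl12 and Ccl25, a thymic and intestinal ligand of Ccr9 whose nearest site was 63.2 kb from its start. With RefSeq limits for the same 6 genes the count was 3 of 6, since Ccr9 had no site at its RefSeq start. At RefSeq starts Ccr9 itself is not CpG-rich, and Ccl21b is.

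The other 44 genes had a site at a start in 13 cases (29.5%, 18.2 to 44.2), against 36.8% of all genes with such promoters. For sites of at least 1 kb it was 7 (15.9%), against 23.3%. Within these CpG-poor genes the receptors again had the higher share, 7 of 13 (53.8%, 29.1 to 76.8) against 6 of 31 ligands (19.4%, 9.19 to 36.3). Ccr6 is the clearest case of a wide site on a CpG-poor promoter, with a ratio of 0.185.

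The same measure was taken over the 250 bases before a RefSeq transcript start, the one nearest to a GENCODE start, which were at hand for 36 of the 50 genes. For 29 of them this start was within 100 bp of the start of the RefSeq gene limits used above, and for 7 it was another start farther away, as in Cxcl14 and Ccr3. In these stretches ligands held a median of 5 CpGs, receptors 1 and all promoters 6. The letters TATAAA, on either strand, were present in 7 of 25 ligands and 1 of 11 receptors, and in 12.4% of all promoters. The receptor was Cxcr4. A match to the kappa B consensus of NF-kappaB, on either strand, was present in 7 ligands, namely Ccl1, Ccl9, Ccl20, Cxcl1, Cxcl2, Cxcl3 and Cxcl10, in 2 receptors, Ccr1 and Ccr3, and in 7.25% of all promoters. Of these 7 ligands only Ccl1 had a site at a start, as had 22.9% of all 35 ligands and 31.3% of all genes. A match is a description of these letters and not of binding.

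Genes that stand in clusters were compared with those outside. A cluster was a run of at least 2 of these genes with gaps of at most 500 kb, and 9 such runs held 35 of the 50 genes. A site at a start was found for 9 of 35 genes in clusters (25.7%, 14.2 to 42.1) and 8 of 15 outside (53.3%, 30.1 to 75.2), and these intervals overlap. Of all genes, 31.3% had one. Among ligands it was 5 of 27 in clusters and 3 of 8 outside, and among receptors 4 of 8 and 5 of 7. With RefSeq limits it was 4 of 27 and 3 of 8 for ligands, and 2 of 8 and 5 of 7 for receptors. The ligands in clusters include the run from Ccl27a to Ccl21a, where repeated sequence keeps a lack of sites from being read. All 7 receptors outside clusters had a site at a start or in the body. Most genes in clusters were ligands, and within both kinds the share was higher outside, without a test.

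The cluster of Cxcl5, Cxcl3, Cxcl15, Cxcl1 and Cxcl2 on chromosome 5, which codes mainly for neutrophil attractants, held no site in 148.6 kb (chr5:90758298-90906938), and neither did the flanks of the same length. Ppbp and Pf4, the platelet chemokine genes inside it, had none either. It lay in a stretch of 746.4 kb without a site. Of all autosomal protein-coding genes, 3.55% had their start in a stretch at least this long, so many other genes lie in stretches of this length. Cxcl2 (ENSMUSG00000058427, chr5:90903871-90905938) and Cxcl1 (ENSMUSG00000029380, chr5:90891241-90893115) were 320.1 kb and 307.4 kb from the nearest site. Of the sequences of 75 bases in this stretch, 7.79% occurred more than once on chromosomes, scaffolds and patches, so that most reads of the length sequenced could be placed if alternate loci were left out. The spans of Cxcl5, Cxcl3 and Cxcl15 also occur in an alternate locus of another strain, with 93.3%, 91.5% and 97.3% of their 75-base sequences, and whether alternate loci were among the aligned sequences is not given in the sources used here. Cxcl16, outside this cluster, is in an alternate locus over 100% of its span and had a site. The part of alternate loci in the lack of sites here was not tested.

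The cluster of Ccl27a, Ccl21b, Ccl27b, Ccl19 and Ccl21a on chromosome 4, homeostatic ligands of skin and lymphoid tissue, also had no site at any gene, but here the sequence did not allow a reading. The spans of Ccl21b, Ccl27b, Ccl19 and Ccl21a were repeated over 100% of their 75-base sequences and that of Ccl27a over 41%. Of the 1024 kb stretch without a site in which the former 4 lie, 98.7% of the 75-base sequences free of unknown bases were repeated. Reads from there have no single place, and no site in it says nothing of the mark. Ccl21b (ENSMUSG00000095675, chr4:42255767-42256432) was the ligand farthest from a site, at 435.5 kb. Without the 7 genes whose span was repeated over more than 10%, 8 of 30 ligands (26.7%) and 8 of 13 receptors (61.5%) had a site at a start.

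The CC clusters of chromosome 11 are given by the RefSeq limits of their genes. The run from Ccl2 to Ccl1, with Ccl7, Ccl11, Ccl12 and Ccl8, was covered over 2.71% of 146.2 kb, while the flanks of the same length were covered over 41.2% and 37.5%. With the GENCODE limits, which take in the long transcript of Ccl1 and most of the right flank, the run was covered over 21.1% of 272.1 kb and its flanks over 37.4% and 11.1%, so that its place between the flanks depended on the annotation. Within the RefSeq limits its 4 sites lay at Ccl11, Ccl12 and Ccl1, and Ccl2, Ccl7 and Ccl8 were 21.2 kb, 11.1 kb and 11.9 kb from the nearest. The run from Ccl5 to Ccl4, with Ccl9, Ccl6 and Ccl3, was covered over 0.947% of 140.9 kb, and its flanks over 18.7% and 13.7%, with either annotation. All its 3 sites stood at the Ccl4 end. Repeated sequence made up 1.53% of the 218.2 kb stretch without a site that holds Ccl5, Ccl9, Ccl6 and Ccl3.

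The receptors of chromosome 9 included genes far from any site. Cxcr6, a receptor of resident T cells, was 26.7 kb from a site, and Ccr1, a monocyte receptor, was 34.6 kb from one, the farthest of all receptors. Ccr1 was repeated over 16.5% of its span. By GENCODE starts the third in distance was Cxcr5, at 18.9 kb, but it was only 5.55 kb from a site by its RefSeq start. By RefSeq starts the third was Cxcr1 of chromosome 1, at 14.46 kb. The pair of Ccl26 and Ccl24 was the opposite case, with 56.0% of 14.68 kb covered. The other pairs, Cxcr2 with Cxcr1, Cxcl9 with Cxcl10 and Ccl22 with Ccl17, were covered over 5.64%, 5.05% and 1.74%.

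**Figure D3:**
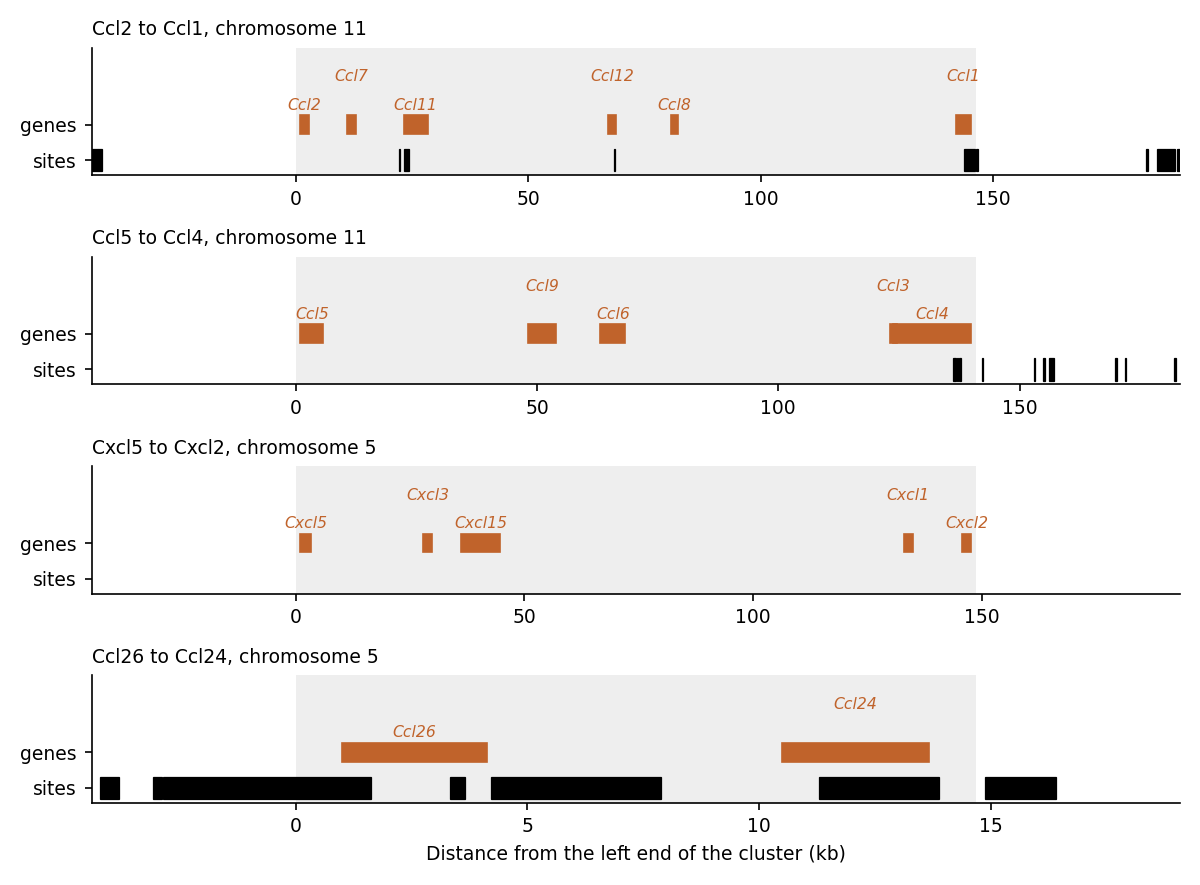
Maps of 4 clusters of ligand genes, with RefSeq gene bodies (orange) above and H3K27me3 sites (black) below, against the distance from the left end of the cluster in kb; the shaded part is the cluster and each panel has its own scale. The Cxcl5 to Cxcl2 panel has no site, the Ccl2 to Ccl1 cluster holds 4 and the Ccl26 to Ccl24 pair lies among wide sites.

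Seen from the start of each gene by RefSeq, the nearest site was at a median of 2863 bp for receptors and 11882 bp for ligands. Both kinds range from 0 upwards, but no receptor was more than 34.6 kb from a site, whereas Cxcl2 was at 320.1 kb. Stretches of over 100 kb without a site held the RefSeq start of 18 of the 50 genes (36%), and the start of 33.1% of all genes. Ccl4 was counted there, although its GENCODE start lay under a site. Of these 18, 17 were ligands, and the receptor was Ccr1. They include Ccl21b, Ccl27b, Ccl19 and Ccl21a, whose repeated stretch cannot be read, and Ccr1, which was repeated in part. Among the 43 genes with at most 10% of repeated sequence, 13 (30.2%) had their start in such a stretch, and all 13 were ligands.

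**Figure D4:**
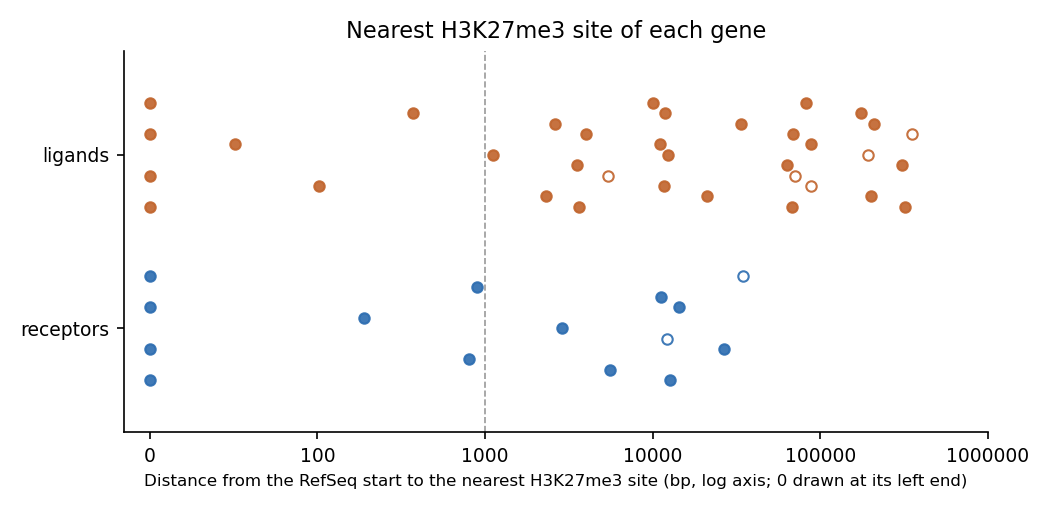
Distance from the RefSeq start of each gene to the nearest H3K27me3 site in bp (x axis, log scale, with 0 drawn at the left end) for 35 ligands (orange) and 15 receptors (blue); each point is a gene, its height within a row has no meaning, open points are repeated over 10% of the span and the dashed line is at 1000 bp. Receptors end at 34.6 kb, while 14 ligands lie beyond that.

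The 75 sites that touched these genes had a median width of 658 bp, against 460 bp for all autosomal sites. At least 1 kb was reached by 30 of them (40%) and by 23.9% of all autosomal sites. The centres of 46 lay in introns, of 15 in exons and of 14 outside the gene bodies. Ccl1, Ccr9, Ccl28 and Cxcr5 together accounted for 38 of the 75, and with RefSeq limits 45 sites were left. No site touched more than 1 of these genes.

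Other genes of the pathway, 31 in number and with Cxcr3 among them, were counted in the same way. A site at a start was found for 10 (32.3%, against 31.3% of all autosomal genes) and a site at a start or in the body for 15 (48.4%, against 47.8%). Sites of at least 1 kb touched a start of 6 (19.4%, against 20.3%) and a start or the body of 8 (25.8%, against 24.3%), so the shares lay near the background on each count. Among the atypical receptors, which take up chemokines without G protein signalling, 3 of 5 had a site at a start, against 31.3% of all genes. Ackr1 was covered over 100% of its span by a site of 6085 bp, and Ackr2 over 58.8%, with a widest site of 4332 bp, Ccrl2 had sites of at most 794 bp, and Ackr3 and Ackr4 had none. Of the 4 other signalling receptors, Cx3cr1, the receptor of Cx3cl1 on monocytes and microglia, had a site of 1019 bp, the only one of these 4 with a site of this width. Of 18 genes of signalling and desensitisation, 5 had a site at a start (27.8%). Prex1, an exchange factor for Rac, was covered over 69.3% with a site of 17767 bp. The receptor kinase gene Grk3 had one of 4700 bp, Rgs16, a regulator of G protein signalling, one of 2777 bp, and Elmo1 and Dock2, partners in the activation of Rac, had widest sites of 2789 bp and 2996 bp. The G protein genes Gnai2, Gnai3 and Gnb2 and the arrestin gene Arrb2 had none.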

How the data were processed

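H3K27me3 ChIP-seq libraries of iMEF cells were trimmed by the authors with Trim Galore, aligned with BWA to mm10 (GRCm38.p6), filtered with SAMtools, merged over replicates, brought to the lowest coverage and searched for broad peaks with MACS. Versions, thresholds and the rule for bringing peaks together are not given in the sources used here. The deposited list holds base positions only, with no count or score, and no depth per sample. Sites of 200 bp, the smallest width, numbered 19442. A narrow site therefore carries less weight here than a wide one, and sites present in some libraries only cannot be told apart from sites present in all.

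Starts and bodies were taken from GENCODE M21, an earlier release than that of the study, and from RefSeq. A site counted from 1 bp of overlap. Start windows reached 1 kb to either side. CpG content was read 500 bp to either side of the gene start. Repeats were exact 75-base sequences, on either strand, that occurred more than once. Shares carry 95% Wilson intervals, and differences Newcombe intervals. The genes, roles, pairs and pathway list were chosen with earlier results of these data known, so no test was run on them. Full values were given for genes with a site of at least 1 kb, the 3 of each kind with the highest covered share or farthest from a site, and Cxcl12 and Cxcr4. Python 3.11.15, pandas 2.3.3, numpy 2.4.6, statsmodels 0.14.6 and pysam 0.24.0 were used, and the overlap and repeat counts were tested on simulated data. Promoter sequences are those of RefSeq for GRCm38.p6. Values of 1 receptor gene enter the counts but are not reported here.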

Additional observations from a re-analysis of the deposited data

How the results depend on the processing

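Of 158 values recomputed under 14 alternative settings, 146 moved by less than their interval or by less than 1.5 times for counts, 12 moved by more and 0 changed sign. With only sites of at least 1 kb, a site at a start was found for 22% of all 50 genes, 33.3% of receptors and 15.9% of genes with a CpG-poor promoter, and a site at a start or in the body for 24% of all, 17.1% of ligands and 40% of receptors, while 30 sites touched the genes. With only sites of at least 500 bp, 34% had a site at a start or in the body, and 41 sites touched the genes. Joining sites closer than 1 kb left 44, and joining those closer than 5 kb left 33. The limits of RefSeq, added after the data were seen, left 45. The difference between receptors and ligands at the start lay between 16.2 points (sites of at least 1 kb) and 43.8 points (without the receptor cluster of chromosome 9), and its Newcombe interval reached below 0 with only sites of at least 1 kb (from -7.71) or 500 bp (from -0.357), with windows of 500 bp or an overlap of 200 bp (both from -3.37), and with RefSeq limits (from -0.357). With the body included, it did so only for sites of at least 1 kb (22.9 points, from -2.61). Since 2 clusters were equally large, each was left out in turn. Leaving out repeated genes was also run without counting alternate loci, a choice made after the data were seen. No paired analysis was possible because sites are given without a measurement in any single library, which also meant that replicates could not be left out one at a time.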
